A study of Homo sapiens with 19 samples.

Results

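The S100 supernatant of Caco-2 culture medium was compared with the cells that had conditioned the medium. Caco-2 is an established human epithelial line of colorectal origin. Small RNA libraries fell into 5 groups, namely cell lysate, total extracellular RNA, the pellets P40 and P100, and the S100 supernatant. The comparison used 6 of the 19 libraries, S100 replicates 2, 3 and 4 and cell lysate replicates 1, 2 and 3, chosen by their titles alone; S100 replicate 1 held 48 counts over 28 miRNAs and was left out. All cells were wild type, were grown in 20% fetal bovine serum to 80% confluence and were then kept for 24 h in medium free of serum and antibiotics. Debris was first spun out of the medium, which was then spun at 40000 × g to give P40 and at 100000 × g to give P100, and S100 is what stayed in solution after both spins. RNA of S100 and of total extracellular RNA was precipitated before Trizol extraction, whereas cell lysate went into Trizol directly. The preparation and the compartment therefore cannot be told apart in S100 against cell lysate, while S100 against total extracellular RNA shares the stated preparation. The labels do not tell whether the replicates were independent cultures, and the p-values therefore describe the spread of these libraries, which may be technical. A count is a share of its library, and a lower share and less RNA released per cell cannot be told apart.

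A miRNA is a short RNA cut from a hairpin precursor, whose 5p and 3p arms can each be loaded into an Argonaute protein and pair with messenger RNAs through the seed, bases 2 to 8. Related miRNAs share a seed and differ in the bases after it, and several hairpins can lie on a single primary transcript. Outside cells, miRNAs are found in vesicles, which high-speed spins pellet, and in smaller particles such as protein complexes and lipoproteins, which largely stay in the supernatant. The S100 fraction is the one in which non-vesicular RNA is usually sought.

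The following mature miRNAs are shown for 3 reasons. The first 7 lead S100 or cell lysate, or share a seed with one that does. The pairs from miR-23a-3p to let-7a-5p differ by 1 or 2 bases and were found in different proportions inside and outside the cells. The last 4 share the seed AGUGCAA and did not all move the same way. Sequences are from RefSeq on GRCh38.p14, written 5′ to 3′ with the seed in capitals, and 199 of the 227 tested miRNAs had one.
miR-22-3p: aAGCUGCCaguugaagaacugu
miR-423-5p: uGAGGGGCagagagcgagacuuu
miR-378a-3p: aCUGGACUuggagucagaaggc
miR-92a-3p: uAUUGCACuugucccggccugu
miR-103a-3p: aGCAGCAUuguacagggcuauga
miR-107: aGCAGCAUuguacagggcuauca
miR-200c-3p: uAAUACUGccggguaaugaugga
miR-23a-3p: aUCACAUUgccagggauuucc
miR-23b-3p: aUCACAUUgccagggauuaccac
miR-100-5p: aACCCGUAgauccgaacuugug
miR-99a-5p: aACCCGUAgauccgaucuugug
miR-30a-3p: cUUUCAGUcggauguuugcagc
miR-30e-3p: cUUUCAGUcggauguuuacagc
miR-106a-5p: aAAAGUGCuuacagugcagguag
miR-17-5p: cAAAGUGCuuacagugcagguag
let-7b-5p: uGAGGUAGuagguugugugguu
let-7a-5p: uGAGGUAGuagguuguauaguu
miR-301a-3p: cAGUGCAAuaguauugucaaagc
miR-301b-3p: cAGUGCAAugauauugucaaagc
miR-130b-3p: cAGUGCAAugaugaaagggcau
miR-454-3p: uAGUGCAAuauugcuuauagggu

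In the hairpins below, both mature arms are in capitals, the 5p arm first. They are shown because S100 and cell lysate held their 2 arms in different proportions.
MIR455: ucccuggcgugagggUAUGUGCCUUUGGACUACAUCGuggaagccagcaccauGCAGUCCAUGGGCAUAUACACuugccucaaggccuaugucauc
MIR338: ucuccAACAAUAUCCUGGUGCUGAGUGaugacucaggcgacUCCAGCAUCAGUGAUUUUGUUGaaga
MIR423: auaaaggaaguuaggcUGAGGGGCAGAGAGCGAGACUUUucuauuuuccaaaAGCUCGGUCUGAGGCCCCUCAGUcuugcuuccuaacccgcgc
MIR194-2: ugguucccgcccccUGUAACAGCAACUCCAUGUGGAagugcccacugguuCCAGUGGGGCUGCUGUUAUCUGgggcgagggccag
MIR106B: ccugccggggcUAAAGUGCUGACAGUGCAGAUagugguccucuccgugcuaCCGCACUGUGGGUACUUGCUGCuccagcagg

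The 3 S100 libraries held 198878, 225290 and 218492 miRNA counts and the 3 lysate libraries 37453, 157051 and 65996. Thinned to 10017 counts each, S100 libraries still showed at least 288 miRNAs and lysate libraries 244 to 264. Rank correlation was 0.968 to 0.976 between S100 libraries, 0.855 to 0.956 between lysate libraries and 0.473 to 0.547 between the groups. Lysate replicate 1 stood apart: it was the shallowest, miR-92a-3p took 33.5% of its counts against 28.7% and 24.6% in the others, and results that rest on it are given without it below. Levels below are CPM scaled by edgeR's TMM factors (library counts brought to a common total), and differences are fitted log2 fold changes, S100 minus lysate, with their standard error.

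Of 227 miRNAs tested, 73 (32.2%) were higher and 68 (30%) lower in S100 at an adjusted p below 0.05 in edgeR's quasi-likelihood test, so 62.1% of the miRNAs were called. The 2 groups did not overlap for 134 of the 141 called miRNAs, and over all 227 tested miRNAs every S100 library lay above every lysate library for 35.7% and below for 30.8%. All 73 rises and 65 of the falls were at least 2-fold, and 40 rises and 25 falls were at least 8-fold. S100 and lysate share batches 2 and 3, and 138 of the 141 called miRNAs had the sign of the fit in both. Batches follow the labels, and the deposited table of lysate replicate 3 carries a number that differs from its labelled batch 3, so values within batch 3 rest on the label. The median over all tested miRNAs was -0.04, and this zero point moves with the scaling. It shifted upward by 0.21 with library size alone and by 0.43 with relative log expression factors. When any single library was left out it shifted upward by 0.33 to 0.44. The filter then also kept more miRNAs, 239 to 244 in place of 227, so these fits differ from the main one in more than the library. Without the low-count filter the shift was 0.70 and the calls were 131 higher and 58 lower. Among these settings the sign of a call changed once, for miR-4497, whose groups overlapped (-3.57, and 0.35 without lysate replicate 1). Of the 73 rises 72 passed in every fit that left out a library, and of the 68 falls 45 did. Each of these fits raised the zero point, which adds to rises and takes from falls. The 2 counts therefore do not compare how firm rises and falls are. Values given below without a library include this shift and the wider set of miRNAs tested.

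**Figure D1:**
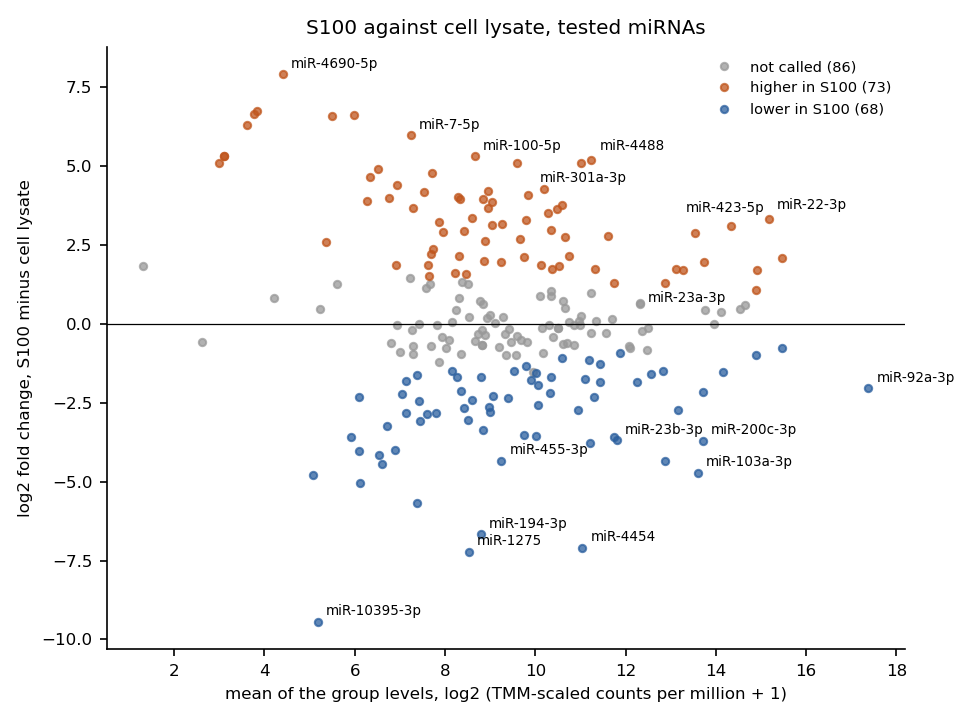
Fitted log2 fold change, S100 minus cell lysate (y axis), against the mean log2 level of the 2 groups (x axis) for the 227 tested miRNAs, each a point coloured by its call. Abundant miRNAs lie on both sides of 0, from miR-22-3p at 3.32 to miR-103a-3p at -4.71.

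miR-22-3p, a miRNA known for restraining growth in several tissues, was the most abundant miRNA of S100 and ranked only 22nd in the cells. Its level was 136620, 92129 and 119991 CPM in S100 replicates 2, 3 and 4 and 13435, 10878 and 10649 CPM in lysate replicates 1, 2 and 3. The S100 libraries were all far above the lysate ones, and the difference was 3.32 ± 0.35 (edgeR, adjusted p = 6.6e-08), with 3.65 within batch 2 and 3.11 within batch 3. The other arm of its hairpin, miR-22-5p, was also higher, at 2.39 ± 0.77, or 3.28 without lysate replicate 1.

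miR-423-5p, which is often abundant in cell-free fluids, was at 62431, 60844 and 58360 CPM in S100 and at 10294, 8007 and 3045 CPM in lysate. Its hairpin lies in NSRP1 on chromosome 17, overlapping an annotated exon. The S100 libraries agreed closely while the lysate libraries spread by over 3-fold, and the difference of 3.09 ± 0.51 became 3.84 without lysate replicate 1. miR-320a-3p was at 88042, 91476 and 100043 CPM in S100 against 22125, 22120 and 21442 CPM in lysate, 4.26-fold higher. Both groups were tight and clearly apart. miR-378a-3p, from an intron of PPARGC1B, a regulator of mitochondrial metabolism, was at 56968, 48451 and 60651 CPM in S100 and at 18670, 15045 and 17640 CPM in lysate. miR-210-3p, the miRNA best known for its induction by low oxygen, was at 32389, 28389 and 35487 CPM in S100 and at 5235, 3826 and 4124 CPM in lysate. It differed by 2.87 ± 0.58, and its lowest S100 library was above its highest lysate library by a wide margin.

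miR-221-3p, from the X-linked cluster with miR-222 that targets cell-cycle inhibitors, was at 29133, 17553 and 34223 CPM in S100 and at 8445, 6631 and 5558 CPM in lysate, a difference of 1.97 ± 0.37. Its cluster partner miR-222-3p, with the same seed, was at 2213, 1548 and 2265 CPM against 2617, 1746 and 1901 CPM, and its groups overlapped. miR-483-5p, from the IGF2 locus, was at 37164, 51306 and 44551 CPM in S100 and at 26905, 17953 and 18478 CPM in lysate, the smallest of these rises at 1.07 ± 0.30. miR-21-5p, widely raised in tumours, did not pass the test, with 25175, 23870 and 34800 CPM in S100 and 10609, 24051 and 25277 CPM in lysate. miR-372-3p, of the embryonic miR-371 to miR-373 cluster, did not pass either, at 27721, 25464 and 40677 CPM against 18111, 27788 and 16561 CPM.

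**Figure D2:**
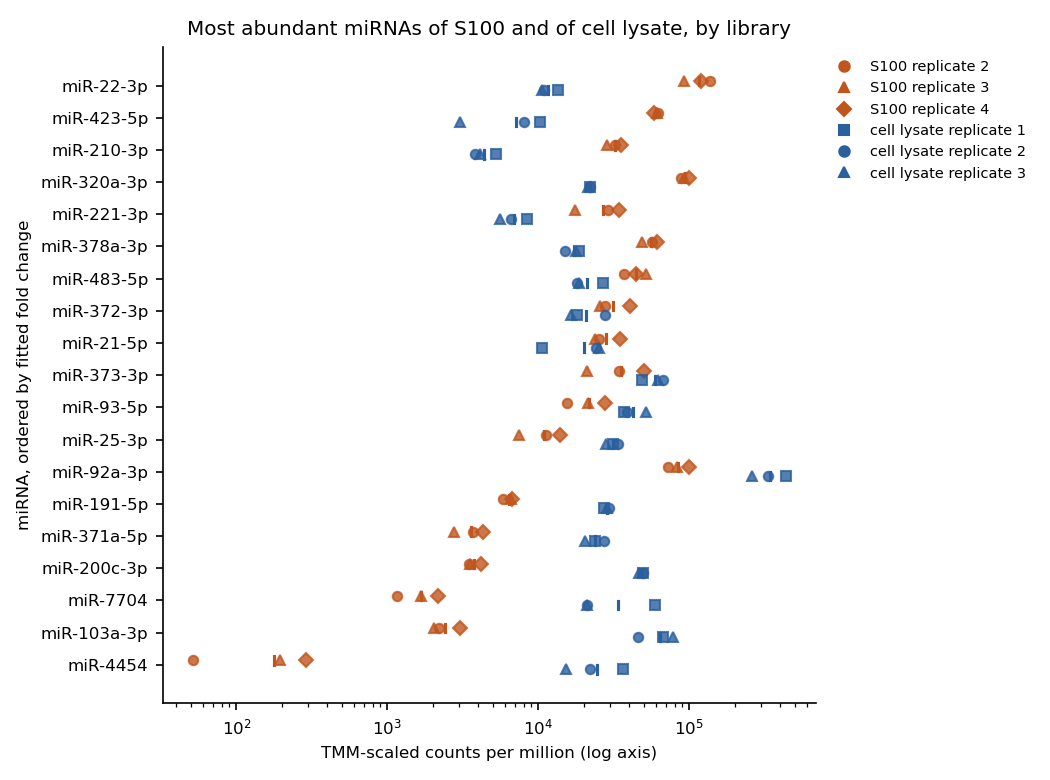
TMM-scaled CPM on a log axis for the miRNAs among the 12 most abundant of S100 or of cell lysate, with 1 marker per library and a bar at each group mean. S100 lies to the right of lysate for miR-22-3p, miR-423-5p and miR-210-3p, both groups mix for miR-372-3p and miR-21-5p, and lysate lies to the right for miR-92a-3p down to miR-4454.

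miR-92a-3p, the most abundant miRNA of the cells and a member of the growth-promoting miR-17~92 cluster, was at 437709, 334111 and 261642 CPM in lysate and still the third in S100, at 72212, 82533 and 98848 CPM. The difference was -2.03 ± 0.30, and -1.44 without lysate replicate 1. miR-103a-3p, from introns of the pantothenate kinase genes PANK3 and PANK2, was second in the cells and 54th in S100. It was at 67316, 45379 and 77779 CPM in lysate and at 2198, 2043 and 3009 CPM in S100, 26.3-fold lower, with no overlap. miR-107, which shares its seed, fell with it, from 10155, 6771 and 9295 CPM to 519, 591 and 792 CPM.

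miR-200c-3p, which keeps epithelial cells epithelial by repressing ZEB factors, was at 49169, 49701 and 46123 CPM in lysate and at 3486, 3529 and 4163 CPM in S100. Both groups were tight, and it differed by -3.70 ± 0.29 (edgeR, adjusted p = 6.01e-10). miR-191-5p was at 27115, 29350 and 28483 CPM in lysate and at 5848, 6542 and 6648 CPM in S100. miR-371a-5p was at 23555, 27122 and 20395 CPM in lysate and at 3692, 2780 and 4273 CPM in S100. None of these 3 had overlapping groups. Abundant members of the miR-17~92 paralogs fell less: miR-25-3p by 1.51 and miR-93-5p by 0.98 on the log2 scale, and miR-93-5p did not pass in any of the 6 fits with a library left out (-0.40 to -0.79). miR-373-3p, at -0.76, had overlapping groups and likewise did not pass with any library left out (-0.16 to -0.68).

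For the largest rises, S100 had to reach 100 CPM and the groups could not overlap, while lysate had no minimum. Ranking by ratio under this rule favours miRNAs scarce in the cells. That most of these miRNAs were scarce in lysate is thus no separate result. miR-7-5p, a miRNA best known from neurons and endocrine cells, had 280, 296 and 296 counts in S100 and 0, 4 and 1 in lysate. Its difference was 5.97 ± 0.87, and 7.00 without lysate replicate 2. miR-100-5p, of a family that targets mTOR signalling, was at 2516, 2072 and 2322 CPM in S100 and at 140, 37.0 and 32.2 CPM in lysate. Its 3 S100 libraries were within a narrow range and the difference was 5.31 ± 0.71, or 6.33 without lysate replicate 1. miR-301a-3p, from an intron of SKA2, was at 12210, 12634 and 12309 CPM against 209, 562 and 258 CPM, which took it from rank 145 in the cells to rank 19 in S100. Its difference of 5.09 was 5.95 without lysate replicate 2. miR-671-5p, from an exon of CHPF2, had 112, 147 and 137 counts in S100 and 0, 5 and 0 in lysate, and its difference of 4.90 became 8.42 without lysate replicate 2.

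miR-4488 was at 11563, 17291 and 11733 CPM in S100 and at 1082, 118 and 96.7 CPM in lysate. Lysate replicate 1 was the high one, and without it the difference of 5.19 became 7.32. miR-4690-5p, from an intron of PCNX3, had 72, 127 and 86 counts in S100 and none in lysate, at least 34.3-fold higher against a floor of 3 counts over the lysate group. miR-1228-5p, from an intron of LRP1, had 113, 225 and 75 counts in S100 and a single count in lysate, a ratio of 149 with an exact 95% counting interval of 26.6 to 5901. Among miRNAs too scarce for the test, miR-935 had 173 counts and miR-3940-3p 142 in S100 and none in lysate, at least 20.8-fold and 17.1-fold higher. These intervals and floors cover counting error only.

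At the other end, miR-10395-3p had 51, 138 and 71 counts in lysate and none in S100, at least 240-fold lower. miR-194-3p, an arm of a gut epithelial hairpin, had 103, 707 and 286 counts in lysate against 11, 6 and 9 in the much deeper S100 libraries, and the difference of -6.66 ± 0.52 was -6.04 without S100 replicate 3. miR-4454, a name whose sequence overlaps a transfer RNA, was at 36607, 21839 and 15353 CPM in lysate and at 51.3, 196 and 288 CPM in S100. It ranked ninth in the cells and 179th in S100, and its difference of -7.09 was -6.31 without lysate replicate 1 and -6.27 without S100 replicate 2. miR-1275 fell from 10120, 2435 and 983 CPM to 10.3, 8.32 and 68.2 CPM. Its lysate values spread by over 10-fold, and the difference of -7.22 ranged from -5.49 without lysate replicate 1 to -8.22 without S100 replicate 4. miR-455-3p, miR-424-3p, miR-374b-5p, miR-200a-5p, miR-4485-3p, miR-7704 and miR-1260b completed the falls of largest size, at -4.17 to -5.68.

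Families differed in whether their members moved together. The lists were chosen with earlier results of these data known, and over all tested miRNAs 32.2% were higher and 30% lower. With 62.1% of miRNAs called, a shared direction among 2 or 3 members says little about a family. All 4 tested members of the miR-378 family were higher, with a median of 3.10 beside -0.04 over all tested miRNAs, and took 6.03% ± 0.26 of S100 counts and 1.52% ± 0.17 of lysate counts (SD, n = 3 each). The 4 tested miR-320 members were all higher as well, with a median of 3.60, at 9.70% ± 0.63 of S100 and 1.92% ± 0.16 of lysate counts. The miR-29 family, which represses collagen genes, had 3 of 3 higher, miR-29b-3p at 4.17, miR-29c-3p at 1.82 and miR-29a-3p at 1.28. Without lysate replicate 2 the last 2 were at 2.54 and 1.96, and miR-29b-3p was at 4.95 without lysate replicate 3. Both members of the miR-103 and miR-107 family were lower, going from 6.20% ± 1.87 of lysate counts to 0.293% ± 0.035 of S100 counts. Both tested members of the cluster of miR-183, miR-96 and miR-182, known from sensory cells and epithelia, were lower too, miR-183-5p at -3.52 and miR-182-5p at -2.18, the first at -2.89 without lysate replicate 1 and the second not passing without S100 replicate 3 (-1.70).

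The miR-17~92 cluster and its paralogs, the best-known growth-promoting miRNAs of colorectal tumours, made up 38.2% ± 1.9 of lysate and 14.9% ± 1.9 of S100 counts. Of its 16 tested members 3 were higher and 5 lower, with a median of -0.67. Beside the 32.2% higher and 30% lower over all tested miRNAs, the lower share was near the background and the higher share below it. The higher ones were miR-106a-5p, miR-106b-5p and miR-17-3p, and the lower ones were miR-92a-3p, miR-25-3p, miR-25-5p, miR-93-5p and miR-106b-3p. let-7 and miR-98, which restrain growth, had 5 of 9 lower and none higher, with a median of -2.21, but their shares of 1.01% ± 0.27 and 2.02% ± 0.92 overlapped between the groups. let-7b-5p, its most abundant member in S100, did not pass the test, at 7974, 4344 and 6558 CPM in S100 and at 3908, 5217 and 3158 CPM in lysate. The epithelial miR-200 family had 4 of 7 lower and none higher, at 0.712% ± 0.045 of S100 and 4.55% ± 0.52 of lysate counts. Within it miR-200c-3p, miR-200a-5p, miR-200b-5p and miR-200b-3p were lower, and miR-141-3p (0.87), miR-429 (0.30) and miR-200a-3p (-0.50) did not pass. miR-200b-3p passed with lysate replicate 1 left out but with no other library left out, and was at -0.42 without lysate replicate 3. miR-200b-5p, at -2.83, was at -2.05 without S100 replicate 4. Without the low-count filter the medians of the let-7 family (0.12 over 12 members) and of the miR-17~92 group (0.49 over 21) turned positive, beside a shift of 0.70 for all miRNAs, while that of the miR-200 family stayed at -0.95.

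Other families were mixed. In the gut epithelial group of miR-192, miR-194 and miR-215, miR-192-5p (1.75) and miR-215-5p (2.15) were higher while miR-194-5p (-1.08) and miR-194-3p (-6.66) were lower. miR-194-5p did not pass in any fit with a library left out, and without lysate replicate 2 miR-192-5p was at 2.65 and miR-215-5p at 2.92. In the family of miR-100 and miR-125, with miR-10 and miR-99, miR-100-5p and miR-125b-5p (3.23) were higher and miR-99b-5p (-2.57), miR-10b-5p (-2.12) and miR-125a-5p (-1.26) lower. miR-125b-5p was at 3.90 without lysate replicate 2 and miR-99b-5p at -1.98 without S100 replicate 4. miR-125a-5p did not pass without lysate replicate 2 (-0.79) or S100 replicate 4 (-0.64), nor miR-10b-5p without lysate replicate 3 or any single S100 library (-1.67 to -1.74). In the miR-30 family, miR-30a-3p (4.66) and miR-30c-5p (2.93) were higher and miR-30d-5p (-2.72) lower. Of the 5 tested members of the miR-15/16 and miR-26 families, which restrain the cell cycle, miR-15b-5p (-3.04), miR-16-5p (-1.58) and miR-26a-5p (-1.49) were lower and miR-15a-5p and miR-26b-5p did not pass. miR-15b-5p was at -1.78 without lysate replicate 1. Of 16 tested miRNAs often reported in extracellular vesicles 9 were higher and 4 lower, beside 32.2% and 30% of all tested miRNAs, and together they took 23.5% ± 0.8 of S100 and 7.16% ± 1.65 of lysate counts. Of 3 miRNAs reported as vesicle-free in plasma, miR-92a-3p and miR-16-5p were lower and miR-122-5p did not pass. miR-16-5p and miR-122-5p are also on the vesicle list, so the 2 lists are not separate classes.

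**Figure D3:**
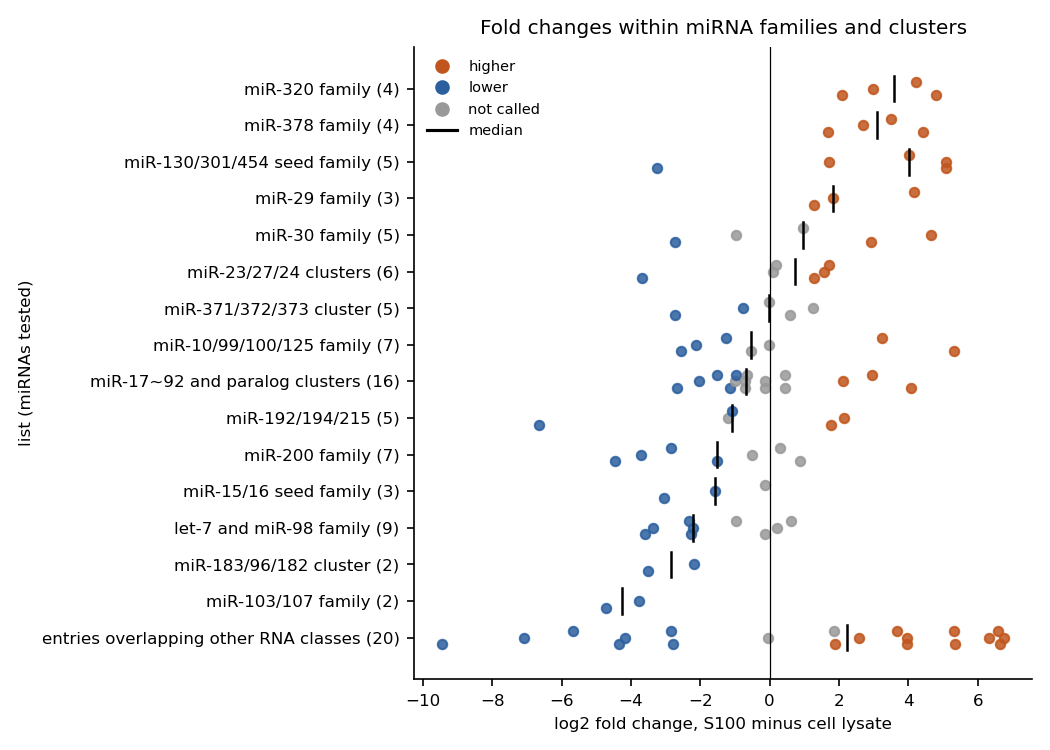
Fitted log2 fold changes, S100 minus cell lysate, of the tested members of 16 lists (points, coloured by call, spread vertically for legibility) with each list's median as a bar. The miR-320 and miR-378 families lie wholly to the right of 0 and the pair of miR-103a and miR-107 wholly to the left, while the list of miR-17~92 and that of miR-100 and its relatives span both sides.

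Some miRNAs of nearly the same sequence differed in their distribution between S100 and the cells. Among 57 tested miRNAs there were 54 pairs of similar length that differ by at most 3 bases when aligned at the 5′ end. In 39 of them the ratio of the pair did not overlap between the 3 S100 and the 3 lysate libraries. That is 72.2% of the pairs, near the 66.5% of all 227 single miRNAs whose libraries did not overlap, so the count itself sets these pairs little apart. Many of the pairs are pairings among the same 9 let-7 and miR-98 members, so this family weighs heavily in the count. An exact permutation of 3 against 3 libraries cannot go below 0.10, so these ratios are given as descriptions, on log2 CPM with a prior count of 2. How the authors' counting placed reads that match several miRNAs is not given in the sources used here, so values within such pairs may be partly exchanged. The sequences of miR-365a-3p and miR-365b-3p are identical, and their log2 ratio was 0.20 ± 0.09 in S100 and 0.08 ± 0.39 in lysate (SD, n = 3). Reads of this pair cannot be told apart by sequence, so its ratio does not measure exchange within pairs whose sequences differ.

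miR-23a-3p and miR-23b-3p, printed above, share their seed and differ by A19U (the base of miR-23b-3p, the position from the 5′ end, then the base of miR-23a-3p) and by the length of the 3′ end. They were the single pair called in opposite directions. miR-23a-3p was at 13026, 8672 and 13096 CPM in S100 and at 6281, 3523 and 4559 CPM in lysate. miR-23b-3p was at 806, 811 and 1384 CPM in S100 and at 16681, 10028 and 11825 CPM in lysate. The ratio of miR-23a-3p to miR-23b-3p was thus 3.52 ± 0.40 on the log2 scale in S100 and -1.43 ± 0.07 in lysate, and every library kept to its group. Without lysate replicate 1 the fold changes of 1.28 and -3.68 were 1.88 and -3.09.

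miR-100-5p and miR-99a-5p differ by U16A. The ratio of the first to the second was 3.15, 3.58 and 3.12 in the S100 libraries and -1.40, -1.15 and -1.73 in the lysate libraries, and miR-99a-5p itself did not pass the test (257, 146 and 241 CPM against 419, 118 and 177 CPM). miR-30a-3p and miR-30e-3p differ by A18G, and their ratio was 2.54, 1.17 and 1.87 in S100 and -4.01, -1.83 and -1.26 in lysate. The fold change of miR-30a-3p was 4.66, and 5.38 without lysate replicate 2. miR-106a-5p and miR-17-5p, which come from paralogous clusters on chromosomes X and 13, differ by C1A at the first base. Their ratio was -0.52 ± 0.18 in S100 and -4.57 ± 0.50 in lysate, with miR-17-5p at a fold change of -0.13 ± 0.54 and miR-106a-5p at 4.09 ± 0.64, or 4.69 without lysate replicate 2.

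In the let-7 family, let-7b-5p and let-7a-5p differ by A17G and A19G. let-7a-5p was at 6875, 17961 and 10923 CPM in lysate and at 1350, 633 and 1007 CPM in S100, so that the cells held more let-7a-5p than let-7b-5p and S100 more let-7b-5p than let-7a-5p. The ratio of let-7b-5p to let-7a-5p was 2.64 ± 0.10 in S100 and -1.46 ± 0.56 in lysate, and the fold change of let-7a-5p, -3.58, was -2.95 without lysate replicate 2. miR-27a-3p and miR-27b-3p, which differ by U19C, had a ratio of -0.16 ± 0.17 in S100 and -1.74 ± 0.26 in lysate. Other pairs kept closer together. miR-301b-3p and miR-301a-3p, which differ by A10G and G11A, both rose by 5.09 (miR-301b-3p by 5.89 without lysate replicate 3), and their ratios overlapped between the groups. miR-107 and miR-103a-3p, which differ by G22C, both fell.

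**Figure D4:**
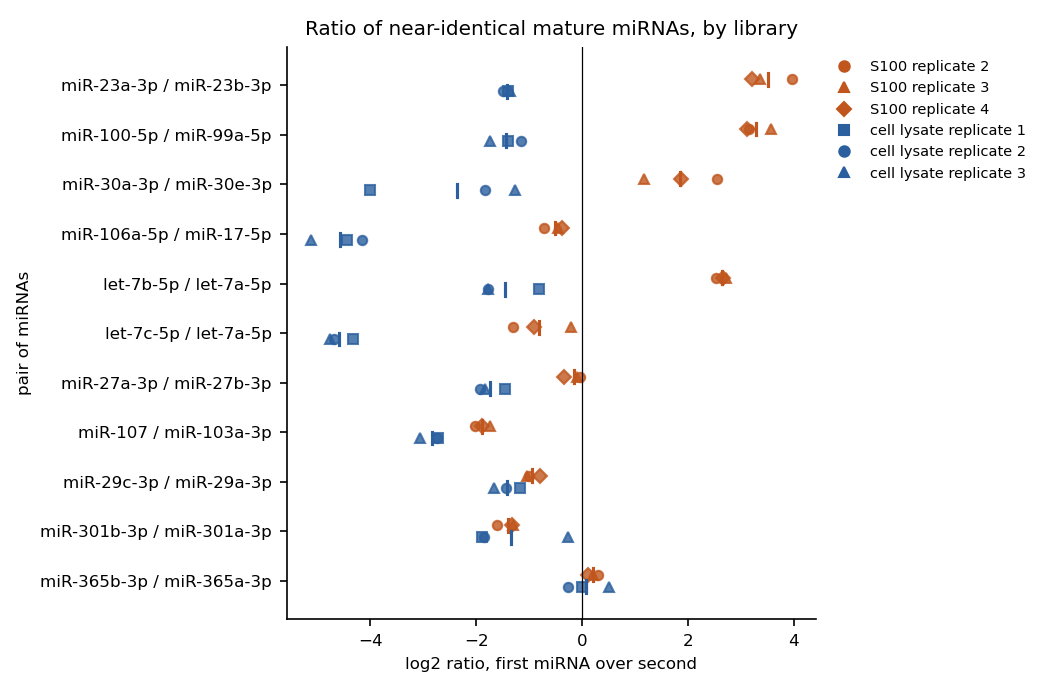
Log2 ratio of the first to the second miRNA of 11 pairs in each library (markers) with group means as bars. The S100 and lysate libraries are far apart for miR-23a-3p over miR-23b-3p and miR-100-5p over miR-99a-5p and mix for the identical miR-365 pair.

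The 2 arms of a hairpin were compared in the same way. Both arms were tested for 35 hairpins: in 10 both were called in the same direction (7 higher, 3 lower), in 15 a single arm was called, in 6 neither was, and in 4 the arms were called in opposite directions. The 4 were miR-455, miR-338, miR-9 and miR-106b. With 32.2% of all tested miRNAs higher and 30% lower, some opposite calls would also arise between unrelated miRNAs. In 23 of the 35 the log2 ratio of the 5p to the 3p arm did not overlap between the groups, a share of 65.7% that is close to the 66.5% of single miRNAs.

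miR-455, from an intron of the cartilage collagen gene COL27A1, was found in the cells mainly as its 3p arm. miR-455-3p was at 2373, 2842 and 2964 CPM in lysate and at 139, 146 and 115 CPM in S100, whereas miR-455-5p was at 34.9, 185 and 113 CPM in lysate and at 375, 300 and 414 CPM in S100. The fold change of miR-455-5p was 1.53, and 2.33 without lysate replicate 2. The 5p to 3p ratio was 1.26 ± 0.35 in S100 and -4.45 ± 0.74 in lysate. miR-338 went the other way: miR-338-3p rose by 4.28 ± 0.79 from 244, 333 and 209 CPM to 6408, 3213 and 6071 CPM (4.88 without S100 replicate 3), and miR-338-5p was at 82.2, 91.6 and 52.4 CPM in S100 and 105, 340 and 322 CPM in lysate. The fall of miR-338-5p, at -1.81, passed with lysate replicate 1 left out but with none of the other 5 libraries left out, and the ratio of the arms was -5.60 ± 0.77 in S100 and -0.15 ± 0.81 in lysate.

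For miR-106b, from an intron of MCM7, the 5p arm rose by 2.95 ± 0.81 (3.61 without lysate replicate 3 or S100 replicate 2) while the 3p arm, at -1.14 ± 0.42, did not pass in any fit with a library left out. Its ratio of arms was -0.65 ± 0.92 in S100 and -4.71 ± 1.02 in lysate. For miR-9, a miRNA of neural progenitors that is scarce here, the 3p arm had 52, 127 and 61 counts in S100 and 0, 6 and 0 in lysate, and the 5p arm 17, 8 and 19 in S100 and 7, 50 and 36 in lysate. The rise of miR-9-3p, 3.91, was 7.72 without lysate replicate 2 and 4.53 without S100 replicate 2, and the fall of miR-9-5p, -2.45, was -1.73 without lysate replicate 3 and -1.76 without S100 replicate 3.

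Among hairpins with a single called arm, miR-423 gave the largest number of reads. Its 3p arm was at 19578, 17936 and 23219 CPM in S100 and at 22404, 14579 and 9666 CPM in lysate and did not pass, in contrast to the 5p arm above. The ratio of its arms was 1.59 ± 0.23 in S100 and -1.21 ± 0.41 in lysate. miR-574 behaved alike, with a 5p arm of GU repeats that rose by 3.67 ± 0.55, a 3p arm at -0.66 ± 0.59, and ratios of 2.16 ± 0.49 and -1.71 ± 0.82. In miR-371a it was the 5p arm that fell, while miR-371a-3p was at 18202, 11248 and 17992 CPM in S100 and 17413, 19263 and 11229 CPM in lysate. For miR-194, where both arms were called lower, the ratio was 3.92 ± 0.41 in S100 and -1.05 ± 0.91 in lysate. miR-194-5p can also come from a second hairpin, so this ratio is not that of MIR194-2 alone.

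**Figure D5:**
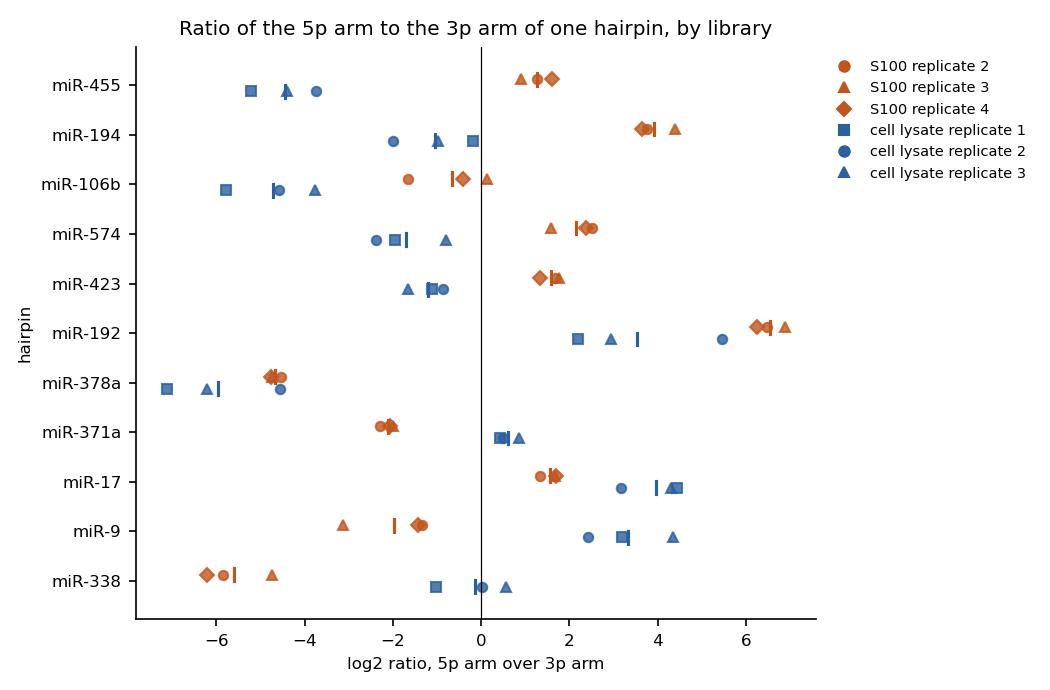
Log2 ratio of the 5p to the 3p arm of 11 hairpins in each library (markers) with group means as bars. S100 lies to the right of lysate for miR-455, miR-194 and miR-423 and to the left for miR-338, miR-9 and miR-371a, and the groups overlap for miR-378a.

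Members of a shared seed or a shared cluster did not all move the same way. The seed AGUGCAA is common to miR-301a-3p, miR-301b-3p, miR-130b-3p and miR-454-3p. The first 3 rose, miR-130b-3p by 1.70 from 3629, 5003 and 7910 CPM to 15162, 18177 and 20409 CPM (2.42 without lysate replicate 3), whereas miR-454-3p fell by 3.25, with 7, 5 and 8 counts in S100 and 10, 52 and 15 in lysate. Without S100 replicate 3 its difference was -2.66. miR-130a-3p, listed in the same seed family but without a sequence here, was also higher, at 4.03 ± 0.76. With the seed AAAGUGC, miR-106a-5p and miR-106b-5p rose, miR-93-5p fell and miR-17-5p and miR-20a-5p did not pass. With ACCCGUA, miR-100-5p rose, miR-99b-5p fell and miR-99a-5p did not pass. By contrast 5 of the 9 tested miRNAs with the let-7 seed GAGGUAG and 2 of 3 with each of AGCAGCA (miR-15 and miR-16), AUUGCAC (miR-25 and miR-92) and AAUACUG (miR-200b, miR-200c and miR-429) were lower with none higher. Over all tested miRNAs 32.2% were higher and 30% lower.

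Of genomic clusters of hairpins within 10 kb on 1 strand, 13 held at least 3 tested miRNAs with a RefSeq entry, and 5 of the 13 held both a higher and a lower one. Since 32.2% of all tested miRNAs were higher and 30% lower, mixed groups would also arise among unrelated miRNAs. The widest range within a cluster was on chromosome 11 (chr11:64891137-64902455), where miR-192-5p and miR-194-3p differed by 8.42 in log2 fold change. In the cluster on chromosome X with miR-106a and miR-92a (chrX:134169378-134170278) the range was 6.11, and in that of miR-25 and miR-106b on chromosome 7 (chr7:100093560-100094074) it was 5.62, with miR-106b-5p higher and 4 of its 6 tested miRNAs lower. The neighbours miR-301b-3p and miR-130b-3p on chromosome 22 (chr22:21652981-21653385) were both higher, while miR-130b-5p (-0.71) did not pass. The miR-17~92 cluster itself (chr13:91350605-91351391, in its host MIR17HG) gave 9 tested miRNAs, of which miR-17-3p was higher, miR-92a-3p lower and 7 not called. miR-92a-3p and miR-19b-3p can come from either chromosome 13 or X. All tested members were lower in 2 of the 13 clusters and higher in 0: let-7a-5p, let-7f-5p and let-7d-5p on chromosome 9 all fell, as did miR-99b-5p, let-7e-5p and miR-125a-5p on chromosome 19. let-7f-5p had overlapping groups, and its -3.36 became -2.26 and did not pass without lysate replicate 2. let-7e-5p, at -2.34, was at -1.56 without lysate replicate 2. miR-23a-3p, miR-23a-5p and miR-27a-3p, from chr19:13836287-13836659, all rose, whereas in the paralogous cluster on chromosome 9 miR-23b-3p fell and miR-27b-3p (0.08) did not pass. miR-24-3p, which both clusters encode, was at 0.17 ± 0.37.

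Base composition set the called miRNAs little apart. The median G+C content was 50% and the median length 22 bases among the 64 higher, the 60 lower and all 199 miRNAs with a sequence, and across these miRNAs G+C and log2 fold change had Pearson r = 0.15 and Spearman rho = 0.08. The 47 miRNAs of 60% G+C or more had 19 higher and 9 lower, and the 26 under 40% had 8 and 8. A first base of A was found in 37.5% of the higher, 23.3% of the lower and 29.6% of all miRNAs, and a first base of C in 9 of 64, 15 of 60 and 31 of 199. The motif GGAG, searched in the mature sequence on its own strand, was in 14.1% of the higher and 8.33% of the lower miRNAs beside 10.1% of all, and GGCU in 15.6%, 13.3% and 14.1%. No test was made of these shares.

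Entries whose sequences overlap other RNA classes went both ways. Of 20 tested, 11 were higher and 7 lower, beside 32.2% higher and 30% lower over all tested miRNAs. Among the higher ones, miR-663b, miR-3960, miR-4466, miR-10394-3p and miR-619-5p had no lysate counts and could not have been called lower. Of the lower ones, miR-10395-3p had no counts in S100. The filter that admitted them covered all 5 groups, so the higher count and the median cannot be read as a trait of these entries. The lower count was thus near the background. The median was 2.23, yet together these entries took 1.17% ± 0.15 of S100 counts and 5.29% ± 2.28 of lysate counts. The higher ones included names that match ribosomal RNA or its spacers: miR-10396a-5p had 82, 169 and 123 counts in S100 and a single count in lysate, miR-663a 292, 614 and 352 against 1, 29 and 4, and miR-663b 43, 49 and 34 against none. Without lysate replicate 2, miR-10396a-5p was at 8.35 and miR-663a at 5.43. miR-1246, which matches the U2 spliceosomal RNA, was at 5063, 3358 and 6249 CPM against 733, 311 and 193 CPM, a difference of 3.66, or 4.61 without lysate replicate 1. Names of the same classes did not all move together: miR-3651, of small nucleolar RNA origin, was lower (-2.80, and -2.18 without S100 replicate 4), and miR-3648, from the ribosomal RNA locus, did not pass (-0.04). The transfer RNA-like miR-5100, with 3 counts in S100 and 0 in lysate, did not pass either. The lower ones included the transfer RNA-like miR-4454 and miR-1260b, the mitochondrial ribosomal RNA-like miR-4485-3p, with 1, 3 and 9 counts against 72, 71 and 40, and miR-7704, from an exon of HOXD1, at 1160, 1677 and 2149 CPM against 59115, 21054 and 21056 CPM. miR-4485-3p, at -5.68, was at -4.32 without lysate replicate 1, and miR-7704, at -4.34, at -3.29.

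S100 against total extracellular RNA, whose RNA was precipitated in the same way, called 63.4% of the miRNAs, 67 (29.5%) higher and 77 (33.9%) lower. Both comparisons use the same S100 libraries, so their values are set side by side only. miR-22-3p was at 3.32 against lysate and at 3.24 ± 0.31 against total extracellular RNA, miR-423-5p at 3.09 and 3.18 ± 0.46, and miR-100-5p at 5.31 and 4.97 ± 0.61. miR-103a-3p was at -4.71 and -3.54 ± 0.39, miR-200c-3p at -3.70 and -2.85 ± 0.27, and miR-23b-3p at -3.68 and -2.73 ± 0.32. These leading miRNAs thus passed the test in both comparisons. miR-92a-3p was different, at -2.03 against lysate and at -0.45 ± 0.27 against total extracellular RNA (edgeR, adjusted p = 0.159). The ribosomal RNA-like names that exceeded lysate were below total extracellular RNA: miR-663b was at 6.75 and -3.98, miR-10396a-5p at 6.58 and -2.80, and miR-663a at 3.95 and -2.71. Of the 20 entries overlapping other RNA classes, 1 was higher and 16 lower against total extracellular RNA, with a median of -2.64 beside -0.34 for all tested miRNAs. The low-count filter covered all 5 groups, and some of the 20, such as miR-663b and miR-5100, passed it through neither S100 nor lysate. A fall of such entries against total extracellular RNA can follow from that selection, so the count is given as a description. miR-455-5p was at 0.81 ± 0.59 and miR-455-3p at -3.32 ± 0.50 against total extracellular RNA, and miR-23a-3p at 0.90 ± 0.31.

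Over the 6 libraries the miRNAs whose log2 CPM was most like that of miR-22-3p were miR-320c (Pearson r = 0.998), miR-210-3p (0.997), miR-574-5p (0.996), miR-4466 (0.996) and miR-378a-3p (0.994). The 2 groups form separate clusters, so these values mostly restate the difference between the groups.

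The tissue label was checked on markers of gut epithelium. All 11 (miR-192, miR-194, miR-215, the miR-200 family, miR-375 and miR-203a among them) had counts in each of the 6 libraries. Together they took 6.38% ± 0.67 of lysate and 3.14% ± 0.18 of S100 counts. Some were scarce in lysate replicate 1, with 3 counts of miR-429, 8 of miR-200b-3p and 9 of miR-141-3p. Markers of other cells were scarce and some stood above the cells: of 10 blood-cell miRNAs, 9 were detected in S100 or lysate, taking 0.523% to 0.731% of S100 and 0.0801% to 0.202% of lysate counts. miR-146a-5p supplied most of this, at 7014, 4652 and 5772 CPM in S100 and 174, 511 and 532 CPM in lysate. miR-451a had 9, 10 and 19 counts in S100 and none in lysate, at least 4.57-fold higher, while miR-486-5p (-4.01) and miR-155-5p (-1.69) were lower (miR-486-5p at -3.31 without S100 replicate 3, miR-155-5p not passing without lysate replicate 3, at -0.98, or without any single S100 library) and miR-144-5p was at 0 in all 6 libraries. The liver miRNA miR-122-5p had 99, 78 and 67 counts in S100 and 7, 23 and 38 in lysate and did not pass, at 0.21 ± 0.54. Of the 5 tested members of the neural list, miR-7-5p, miR-138-5p and miR-9-3p were higher, miR-9-5p (-2.45) was lower and miR-128-3p (0.52) did not pass. miR-138-5p was at 3.13, or 4.08 without lysate replicate 3, and miR-124-3p was at 0 in all 6 libraries. The part of RNA from other cells in these results was not tested.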

How the data were processed

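Per the labels' protocols, libraries of small RNA from Caco-2 cells and medium fractions were built with RealSeq-AC and sequenced as single 50-base reads. The authors deposited raw counts per mature miRNA for each library. Tools named in the submitters' processing notes are Bowtie2, cutadapt 1.16 and FastQC, and the build named is GRCh38 (hg38), while the handling of reads with several matches is not given in the sources used here. A name absent from a file was taken as 0 counts. The 18 libraries with at least 100 miRNAs were fitted together in edgeR 4.0.16 (R 4.3.3) with TMM factors, a minimum count of 10 and total of 15 (filterByExpr), the quasi-likelihood test and Benjamini-Hochberg adjustment over 227 miRNAs, with a threshold of 0.05. The filter kept 98.5% to 99.1% of counts over the 18 libraries fitted. Ratios of miRNAs used log2 CPM with a prior count of 2. Intervals are exact at 95% confidence, and a group at 0 was set to 3 counts. Named miRNAs are the 12 most abundant of each group, the largest rises and falls with groups that do not overlap, list members and pairs. The fit was also run on simulated counts with a single mean profile for all groups and changes planted in S100 only. Groups simulated in this way are more alike than those here, so the run does not test the scaling. Sequences and loci are from RefSeq (GRCh38.p14) and GENCODE on GRCh38. Hairpins without a RefSeq row took the GENCODE span. The members and lists were chosen with earlier results of these data known. Alternatives were other scaling factors, filters, depths, tools and left-out libraries. Labels' batch numbers equal replicate numbers, and S100 and lysate share batches 2 and 3, where deviations from the group means correlated at 0.0904 and -0.120.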

Additional observations from a re-analysis of the deposited data

Results flagged for a closer look

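S100 replicate 1 was used in no comparison because of its 48 counts, yet 4 miRNAs that lead the other S100 libraries had a share in it whose whole interval lay above every lysate library. miR-22-3p made up 6.25% of its counts (exact 95% interval 1.31% to 17.2%) against 0.936% to 1.03% in the lysate libraries, and miR-320a-3p made up 8.33% (2.32% to 20.0%) against 1.69% to 2.02%. miR-378a-3p made up 12.5% (4.73% to 25.2%) against 1.29% to 1.66%, and miR-423-5p 6.25% (1.31% to 17.2%) against 0.286% to 0.788%. The intervals cover counting error only. Just the miRNAs with at least 3 counts in this library were looked at, and 3 of 48 counts already give a lower limit of 1.31%. That limit lies above the lysate range of miR-22-3p and of miR-423-5p, so the outcome for these 2 followed from the selection. Of the other 2 miRNAs with at least 3 counts, miR-92a-3p made up 12.5% (4.73% to 25.2%) against 24.6% to 33.5% in lysate. The share of miR-21-5p was 6.25% (1.31% to 17.2%) against 0.812% to 2.38%. Both of these intervals overlap the lysate range.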

How the results depend on the processing

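With no filter on low counts, the 73 higher and 68 lower calls against cell lysate became 131 and 58, and the 67 and 77 against total extracellular RNA became 118 and 63. At equal depth, where 140 miRNAs were tested, they became 39 and 34 against lysate and 42 and 46 against total extracellular RNA. Leaving out single libraries gave 79 to 89 higher and 51 to 57 lower against lysate, and 60 to 74 higher and 54 to 71 lower against total extracellular RNA. Relative log expression factors gave 86 higher and 56 lower against lysate, DESeq2 88 and 60, library size alone 77 and 63, a minimum count of 30 gave 51 and 52, a fit of the 2 groups 100 and 86, and keeping S100 replicate 1 gave 77 and 58. miR-4497 ranged from -3.96 to 0.35 over the fits that left out 1 library, and the cause was not tested.

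With the replicate number as a block, 73 miRNAs were higher and 60 lower against lysate, and 65 and 71 against total extracellular RNA. S100 and lysate share only 2 numbers, whose deviations did not correlate in both, so the samples are not treated as pairs. The block follows the labels, of which that of lysate replicate 3 differs from the number on its deposited table.

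Depth limits scarce miRNAs most in lysate replicate 1, with 37453 counts.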
